A study of Sus scrofa with 6 samples.

Results

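Expression of 6 genes was followed here, the posterior HOX genes HOXA9, HOXA10, HOXC10, HOXD9 and HOXD10 and their DNA-binding partner PBX3, out of 17627 genes in the deposited table. The genes were chosen with their difference between the breeds in view, so their breed values are given as a description and carry no test. All 6 symbols matched an Ensembl pig identifier. The tissue was longissimus dorsi, a muscle that runs along the spine, and the animals belonged to the Wannanhua breed, which is local to China, or to the commercial Yorkshire breed. Each breed had 3 libraries, all labelled 5 months old, although the series design text speaks of piglets. No treatment or genetic change is labelled, breed is the factor that separates the groups, and the labels do not state that the 3 libraries of a breed came from separate animals, so p-values reflect only how these libraries vary, and that variation may be technical. The labels do not give the level of the back from which each sample was cut.

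HOX genes encode homeodomain transcription factors that lie in clusters, named A to D, and are switched on along the head-to-tail axis of the embryo in the order in which they lie on the chromosome. Low paralogue numbers belong to the anterior end and high numbers to the posterior end, and genes of groups 9 and 10 take part in patterning the posterior thorax, the lumbar region and the limbs. PBX proteins are homeodomain proteins of the TALE class that bind DNA together with HOX proteins. Many adult mesenchymal tissues, muscle among them, keep part of the HOX pattern of the body region in which they arose.

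Libraries held between 16385602 and 21056702 reads, recovered from the deposited values. At least 1 FPKM, a fragment count scaled by transcript length and library size, was reached by 10726 to 11979 genes in each. Of the skeletal muscle markers, DES, ACTN2, MYOT and MYBPC1 were high in every library, with a summed level from 4392 to 13781 FPKM. ACTA1, skeletal muscle actin, was listed at 0 in Wannanhua 1 and Yorkshire 2 and above 34737 FPKM in the other 4 libraries, so that a 0 listed here may stand for a failed estimate. The 3 Wannanhua libraries differed from each other in their HOX genes, so HOX values are given per library.

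The group 10 genes were at or near 0 in Wannanhua muscle and read in Yorkshire muscle. HOXC10 (ENSSSCG00000022728), the group 10 gene of cluster C, was listed at 0 FPKM in Wannanhua 1 and 2 and at 1.24 in Wannanhua 3. The values of Yorkshire 1, 2 and 3 were 34.6, 68.1 and 54.0 FPKM. The highest Wannanhua library thus lay far below the lowest Yorkshire library. In recovered reads these were 0, 0 and 13 against 350, 769 and 664. By FPKM, HOXC10 was the highest of the members in each Yorkshire library. By reads, which are not scaled by length, PBX3 was ahead of it in Yorkshire 1 and 3 (445 against 350 and 687 against 664). Of the tested genes 11.1% had a Yorkshire mean at or above the 52.2 ± 16.9 FPKM of HOXC10 (SD, n = 3). Its log2 fold change, taken on log2(FPKM + 1) as Wannanhua minus Yorkshire, was -5.29 ± 0.38 (SE). Of the 11791 genes tested 3 had a lower one, a rank that is no test, since HOXC10 was chosen on this contrast. Summed over libraries, HOXC10 took 123-fold more of the reads in Yorkshire (95% exact interval 72.0 to 232, for counting error only), all 13 of its Wannanhua reads being those of Wannanhua 3. Without that library HOXC10 was listed at 0 throughout Wannanhua, and the fold was at least 173 if those zeros are counts, taken against a floor of 3 reads in each library.

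HOXA10 (ENSSSCG00000021204), known from mouse work for suppressing rib formation together with its paralogues, was listed at 0 in all 3 Wannanhua libraries. It stood at 4.66, 4.47 and 5.96 FPKM in Yorkshire 1, 2 and 3, from 27, 29 and 41 reads. Every Yorkshire library was thus read and no Wannanhua library was. If the zeros are counts, HOXA10 was at least 9.70-fold lower in Wannanhua, against 3 reads in each library. A count of 0 allows up to 3 reads in a library before a level is detectable, which for HOXA10 would be at most 0.517 FPKM.

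HOXD10 (ENSSSCG00000015981), the group 10 gene of cluster D, was listed at 0 in every Wannanhua library and was uneven in Yorkshire. It stood at 0.063 FPKM in Yorkshire 1, which is 1 read, at 5.26 in Yorkshire 2 (93 reads) and at 2.33 in Yorkshire 3 (43 reads). Yorkshire 1 therefore lay with the Wannanhua libraries, 1 read being within what a count of 0 allows. HOXD10 did not reach the minimum of 1 FPKM in 3 libraries and was not fitted. If the zeros are counts, it was at least 13.7-fold lower in Wannanhua against 3 reads in each library, and at least 6.45-fold lower without Yorkshire 2.

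**Figure D1:**
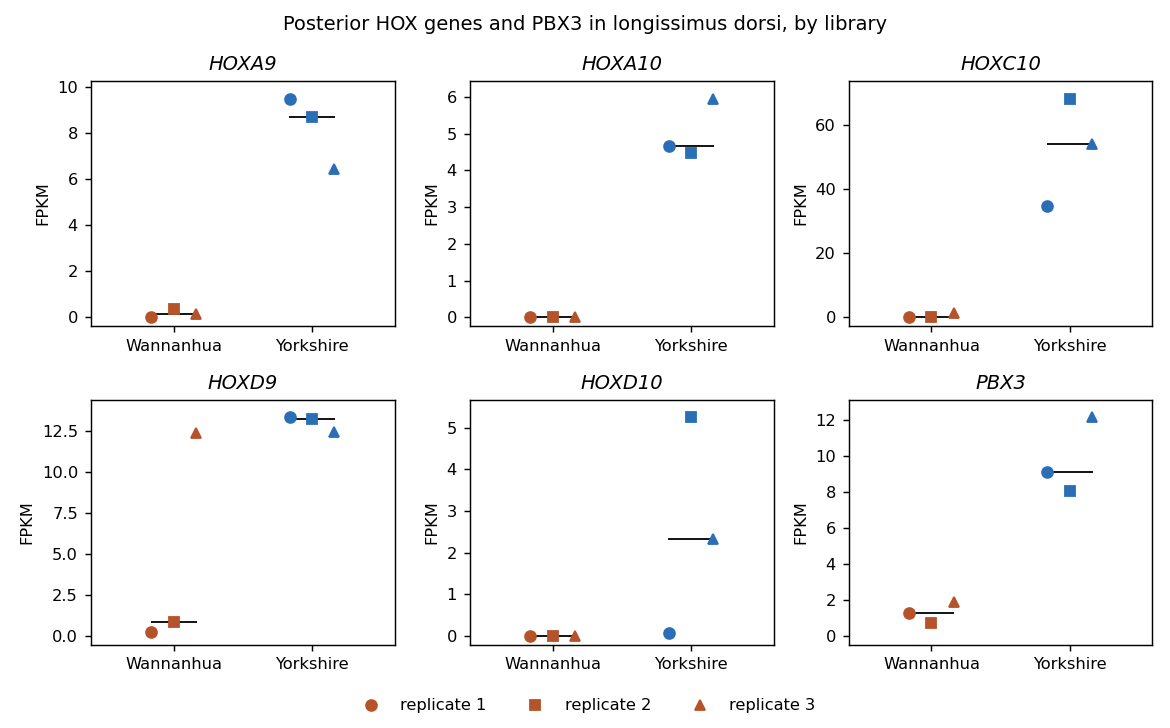
FPKM (vertical axes, linear, each gene on its own scale) of the 6 members in the 3 Wannanhua and 3 Yorkshire libraries, with the symbol giving the replicate number and the bar the median of the breed. HOXD9 in Wannanhua 3, at 12.4 FPKM, lies with the Yorkshire libraries, and HOXD10 in Yorkshire 1, at 0.063 FPKM, lies with the Wannanhua libraries.

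The group 9 genes stood at 6.44 FPKM or more in all Yorkshire libraries, and in Wannanhua muscle 1 of them, HOXD9, reached that level in a single library. Of the tested genes 42.3% had a Yorkshire mean at or above that of HOXA9, and 31.5% at or above that of HOXD9. HOXA9 (ENSSSCG00000028997), the neighbour of HOXA10 in cluster A, was listed at 0, 0.346 and 0.123 FPKM in Wannanhua 1, 2 and 3, from 0, 3 and 1 reads. It stood at 9.49, 8.68 and 6.44 FPKM in Yorkshire 1, 2 and 3, from 75, 76 and 62 reads. All 3 Wannanhua libraries thus lay far below all 3 Yorkshire libraries. By summed reads HOXA9 was 47.9-fold higher in Yorkshire (95% exact interval 18.4 to 177, counting error only), and its log2 fold change was -2.99 ± 0.21 (SE). The fold of mean FPKM was 52.4, 34.9 without Wannanhua 1, which had no read, and 133 without Wannanhua 2, which held 3 of the 4 Wannanhua reads.

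HOXD9 (ENSSSCG00000015982), the group 9 gene of cluster D, stood at 0.200, 0.867 and 12.4 FPKM in Wannanhua 1, 2 and 3, from 5, 21 and 280 reads. The values of Yorkshire 1, 2 and 3 were 13.3, 13.2 and 12.4 FPKM, from 302, 329 and 337 reads. Wannanhua 3 was therefore at the Yorkshire level, at 12.35 against 12.44 FPKM in the lowest Yorkshire library, while Wannanhua 1 and 2 were low. The log2 fold change of HOXD9 was -2.17 ± 0.80 (SE), and it was -1.49, -1.81 and -3.23 without Wannanhua 1, 2 and 3. The fold of mean FPKM was 2.91, and 1.97, 2.07 and 24.4 without these libraries. Among the Yorkshire libraries HOXD9 varied least of the members, with a coefficient of variation of 3.81%, against 16.1% for HOXA10 and 102% for HOXD10.

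RefSeq gene models of the later build Sscrofa11.1 overlap for HOXD9 with both HOXD10 and HOXD11, and in cluster A for HOXA3 with HOXA4, HOXA5 and HOXA6 and for HOXA5 with HOXA6, so the values of these genes are uncertain. How the authors assigned reads in shared exons was not stated in the sources at hand. The libraries do not mark strand, so reads of an antisense RNA in a cluster cannot be told apart from those of the gene. The values of HOXD9 and HOXD10 did not move together: Wannanhua 3 had 12.4 FPKM of HOXD9 with HOXD10 listed at 0, and Yorkshire 1 had 13.3 FPKM of HOXD9 with 1 read of HOXD10. For each 100 units of HOXD9, HOXD10 stood at 0.473, 39.7 and 18.8 in Yorkshire 1, 2 and 3. In cluster A, HOXA10 stood at 49.1, 51.6 and 92.4 for each 100 units of HOXA9 in the same libraries.

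PBX3 (ENSSSCG00000005604) was read in every library and was lower in Wannanhua. It stood at 1.27, 0.721 and 1.87 FPKM in Wannanhua 1, 2 and 3, and at 9.12, 8.10 and 12.2 in Yorkshire 1, 2 and 3. The breeds did not overlap, the highest Wannanhua value being well below the lowest Yorkshire value. The means were 1.29 ± 0.58 and 9.80 ± 2.13 FPKM (SD, n = 3), a 7.62-fold difference that ran from 6.24 to 9.87 with each library left out in turn. The log2 fold change was -2.25 ± 0.25 (SE). PBX3 rested on 37 to 89 reads per library in Wannanhua and 435 to 687 in Yorkshire.

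In all 6 members every Wannanhua library lay below every Yorkshire library, for HOXD9 and HOXD10 by a margin within counting error. Among all tested genes 9.63% showed this order, and since the members were picked on this contrast nothing is read from their count. Of the 6 members 5 passed the minimum of 1 FPKM in 3 libraries. All 5 passed only through Yorkshire, where they were higher, since none of them reached 1 FPKM in all 3 Wannanhua libraries. The median log2 fold change of all tested genes was 0.12.

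**Figure D2:**
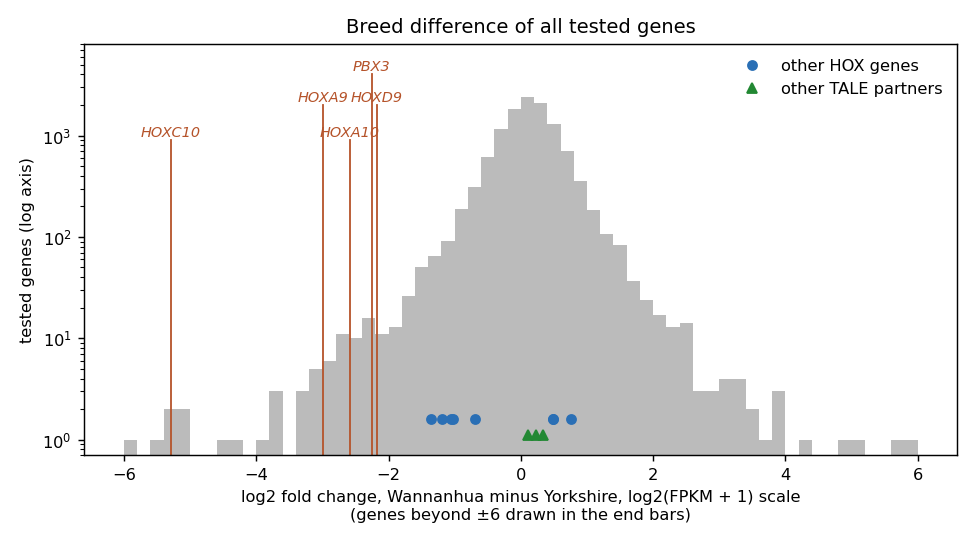
Number of tested genes (vertical log axis) by log2 fold change, taken on log2(FPKM + 1) as Wannanhua minus Yorkshire (horizontal axis). Lines mark the 5 fitted members, between -5.29 and -2.17, circles the 8 other tested HOX genes and triangles the 3 other tested TALE partners.

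Within Yorkshire the order of levels per length was HOXC10, HOXD9, PBX3, HOXA9, HOXA10 and HOXD10. HOXC10 lay above all others in each library. HOXD9 lay above HOXA9 without overlap, HOXA9 and PBX3 overlapped, and so did HOXA10 and HOXD10. PBX3 reached 12.2 FPKM, just under the lowest HOXD9 value of 12.4. HOXA9 lay above HOXA10, with 6.44 FPKM at its lowest against 5.96 at the highest of HOXA10. Within Wannanhua, PBX3 was the highest member in Wannanhua 1, ahead of HOXD9, and HOXD9 was ahead of PBX3 in Wannanhua 2 and 3.

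The other HOX genes placed these values in the series of paralogue groups. The table held 22 of the 39 mammalian HOX genes under a matched symbol, 17 of them not members, and the rest were not analysed here. HOXC11, the single other posterior HOX gene with a symbol, was listed at 0 in all libraries but Yorkshire 2 and 3, with 1 read each. The 16 genes of groups 1 to 8 included 8 that were tested. Of these, 0 passed limma's threshold, an adjusted p under 0.05 over all genes, in either direction, against 3.05% of all tested genes, and 2 had an unadjusted p under 0.05. EdgeR, which called 2.87% of all its genes, tested 9 genes of this list and called 1. The median log2 fold change of the 8 genes tested in limma was -0.86, with 5 negative and 3 positive.

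The 2 genes with an unadjusted p under 0.05 belong to cluster A, near HOXA9. HOXA5 stood at 1.87, 4.54 and 3.48 FPKM in Wannanhua 1, 2 and 3 and at 6.70, 7.54 and 8.82 in Yorkshire 1, 2 and 3. The difference was -1.06 ± 0.26 on the log2 scale (SE; limma adjusted p = 0.0780), and it was the gene that edgeR called (edgeR adjusted p = 0.0479). Over the alternatives its adjusted p ran from 0.0392 after quantile normalization to 0.223 without Yorkshire 3. HOXA7 stood at 0.719, 2.01 and 2.45 FPKM in Wannanhua 1, 2 and 3 and at 9.78, 4.50 and 4.06 in Yorkshire 1, 2 and 3 (log2 fold change -1.36 ± 0.37 SE, limma adjusted p = 0.0948). For both genes every Wannanhua library lay below every Yorkshire library, an order shown by 9.63% of all tested genes. In the main limma fit neither gene passed the threshold over all genes.

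HOXC6, of the same cluster as HOXC10, showed another pattern. It stood at 0.235 FPKM in Wannanhua 1, at 19.8 and 19.0 in Wannanhua 2 and 3, and at 19.6, 14.2 and 13.01 in Yorkshire 1, 2 and 3 (limma adjusted p = 0.601). A single Wannanhua library was thus low, and HOXC10 was listed at 0 in Wannanhua 2 beside a high HOXC6. HOXD1, of the same cluster as HOXD9, stood at 0.157 and 0.155 FPKM in Wannanhua 1 and 2 and at 4.75 in Wannanhua 3, against 3.70, 1.99 and 5.52 in Yorkshire (limma adjusted p = 0.314). It was called in a single alternative, without Wannanhua 3 (limma adjusted p = 0.0317). That library was the Wannanhua library at the Yorkshire level, so nothing is read from this call. HOXD4 stood at 0.535, 1.21 and 3.18 FPKM in Wannanhua 1, 2 and 3, and at 3.805, 3.34 and 1.86 in Yorkshire (limma adjusted p = 0.336). HOXD1, HOXD4 and HOXD9 therefore shared a Wannanhua 3 value within or next to the Yorkshire range.

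HOXA3, HOXB2 and HOXB3, of the anterior groups, were highest in Wannanhua 1. HOXA3 stood at 15.5 FPKM there, at 0.755 and 0.842 in Wannanhua 2 and 3, and at 2.497, 1.496 and 1.21 in Yorkshire (limma adjusted p = 0.761). HOXB2 measured 4.67, 2.15 and 1.19 FPKM in the Wannanhua libraries, and 0.880, 0.633 and 1.65 in those of Yorkshire (limma adjusted p = 0.271). For HOXB3 the Wannanhua libraries gave 2.73, 1.31 and 0.333 FPKM, and the Yorkshire libraries 0.348, 1.05 and 0.507 (limma adjusted p = 0.477). HOXB4, which did not pass the minimum, gave 1.14, 1.51 and 0.460 FPKM in the Wannanhua libraries, with 0.482, 0.867 and 0.877 in those of Yorkshire. The libraries of the breeds overlapped for each of these genes, and the high value of HOXA3 was that of 1 library. HOXB2, HOXB3 and HOXB4 lay above every Yorkshire library in Wannanhua 1 and 2 but not in Wannanhua 3.

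**Figure D3:**
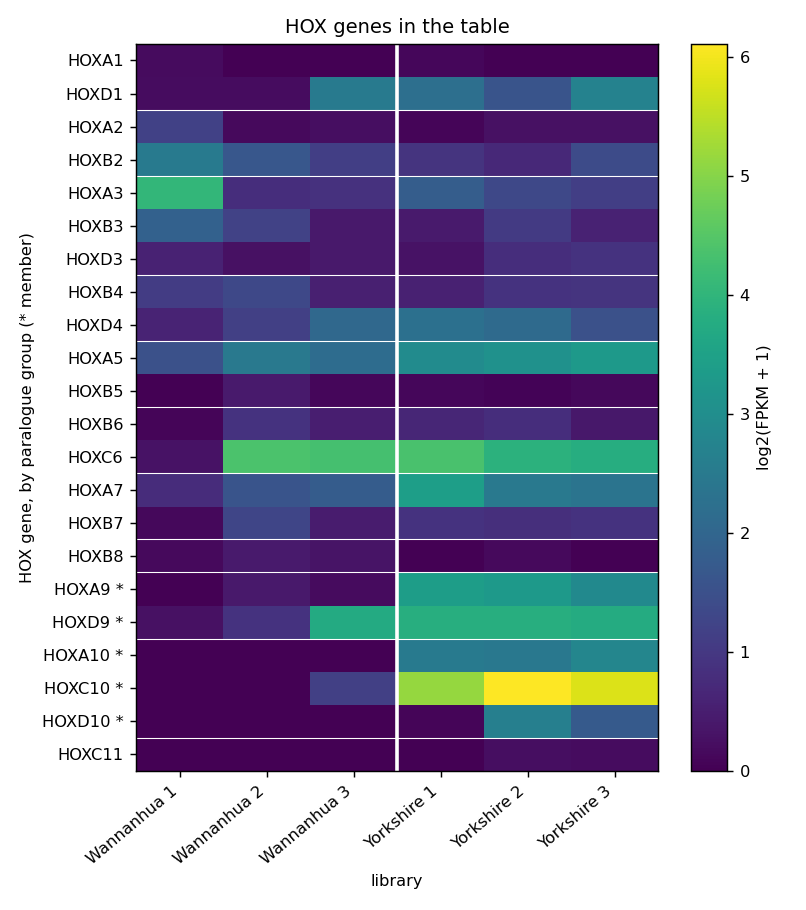
Level of each of the 22 HOX genes with a symbol (rows, by paralogue group from 1 to 11, members marked with an asterisk) in each library (columns), as log2(FPKM + 1). High values sit in the low groups in Wannanhua 1, reach HOXC6 and HOXA7 in Wannanhua 2 and HOXD9 in Wannanhua 3, and reach the group 10 genes in the Yorkshire libraries.

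The HOX level of each library was also summed by paralogue group. Genes of groups 1 to 4 summed to 26.6, 7.41 and 11.3 FPKM in Wannanhua 1, 2 and 3 and to 12.1, 10.3 and 12.7 in Yorkshire 1, 2 and 3. Genes of groups 5 to 8 summed to 3.07, 29.3 and 26.03 FPKM in Wannanhua, and to 37.5, 27.9 and 27.2 in Yorkshire. Wannanhua 1 was the library with the highest anterior and the lowest central sum. Genes of groups 9 to 11 summed to 0.200, 1.21 and 13.7 FPKM in Wannanhua and to 62.1, 99.95 and 81.3 in Yorkshire. They made up 0.668%, 3.20% and 26.9% of the HOX level in Wannanhua 1, 2 and 3. The posterior share was 55.6%, 72.3% and 67.1% in Yorkshire 1, 2 and 3. HOXC10 alone made up 30.9% to 49.3% of the Yorkshire HOX level, and HOXD9 made up 24.2% of that of Wannanhua 3. The highest paralogue group with a gene at 1 FPKM was group 5 in Wannanhua 1, group 7 in Wannanhua 2 and group 10 in Wannanhua 3, where HOXC10 stood at 1.24 FPKM, and in each Yorkshire library. These sums cover the genes with a matched symbol, include the members chosen on this contrast and are a description. Being in FPKM, the sums and shares also depend on the length of each gene model, and shares of reads would differ. A single read was worth up to 0.0987 FPKM for HOXC10 and up to 0.0442 for HOXD9.

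**Figure D4:**
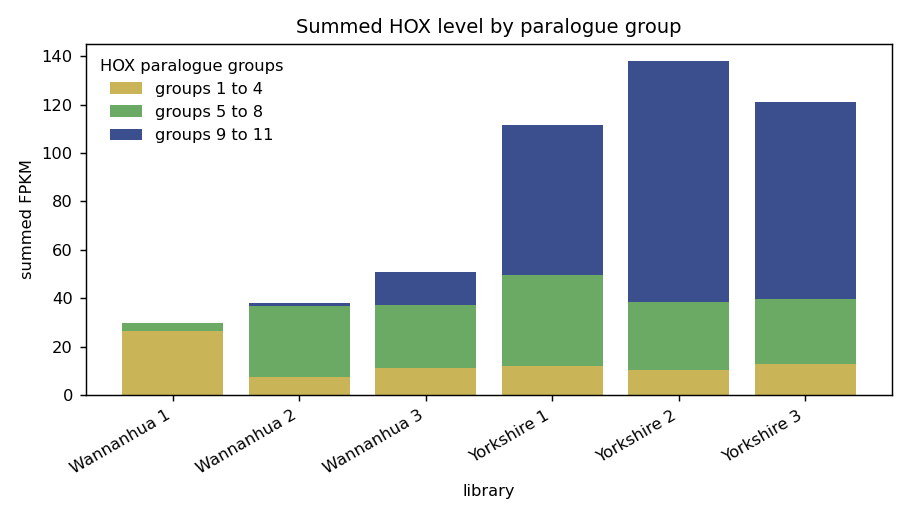
Summed FPKM (vertical axis, from 0) of the HOX genes with a symbol in each library, split into paralogue groups 1 to 4, 5 to 8 and 9 to 11. The posterior part lies between 0.200 FPKM in Wannanhua 1 and 13.7 in Wannanhua 3, and it stands between 62.1 and 99.95 in the Yorkshire libraries.

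The other TALE partners were compared over the same libraries. Of 9 partners listed, 5 had a symbol in the table and 3 were tested, PBX2, PKNOX2 and PBXIP1. None passed limma's threshold, against 3.05% of all tested genes, and 0 had an unadjusted p under 0.05. EdgeR called 0, against 2.87% of all its genes. The median log2 fold change was 0.23, with all 3 positive. PBX2, a close relative of PBX3, stood at 27.6, 33.4 and 36.8 FPKM in Wannanhua 1, 2 and 3 and at 23.1, 29.96 and 24.1 in Yorkshire 1, 2 and 3 (log2 fold change 0.33 ± 0.19 SE, limma adjusted p = 0.349). For each 100 units of PBX2, PBX3 stood at 4.59, 2.16 and 5.10 in Wannanhua and at 39.5, 27.02 and 50.5 in Yorkshire. PKNOX2, a TALE protein that pairs with PBX proteins, averaged 5.89 ± 1.03 and 5.10 ± 1.96 FPKM, and PBXIP1, which binds PBX proteins, 8.81 ± 1.21 and 8.07 ± 0.58 FPKM (SD, n = 3; limma adjusted p = 0.678 and 0.749). MEIS2 and PBX4 reached at most 0.331 FPKM in every library and were not tested.

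**Figure D5:**
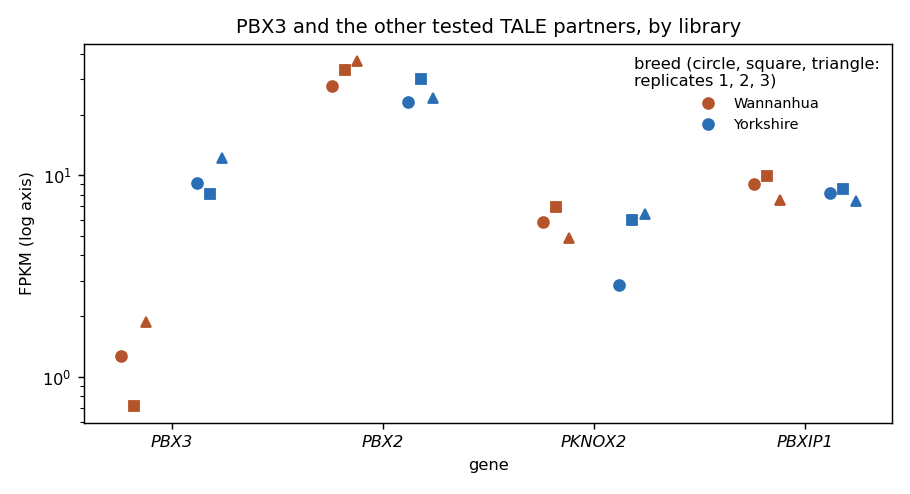
FPKM (vertical log axis) of PBX3 and of the 3 other tested TALE partners in each library, with colour for breed and symbol shape for replicate number. PBX3 lies between 0.721 and 1.87 in Wannanhua and between 8.10 and 12.2 in Yorkshire, while PBX2, PKNOX2 and PBXIP1 overlap between the breeds.

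Genes that keep HOX clusters silent or active were compared next. Polycomb proteins repress HOX clusters, and 0 of the 11 tested members of that list passed limma's threshold, against 3.05% of all tested genes. The list had 1 gene at an unadjusted p under 0.05 and 0 of 13 called in edgeR, against 2.87% of all edgeR genes. Its median log2 fold change was 0.28, with 2 negative. EZH1, the Polycomb methyltransferase of resting cells, averaged 16.4 ± 4.36 FPKM for Wannanhua libraries, with 12.98 ± 5.64 for Yorkshire (SD, n = 3 each; limma adjusted p = 0.563), and BMI1 at 20.6 ± 2.22 and 17.8 ± 2.30 (limma adjusted p = 0.536). PHC1, the member with the unadjusted p under 0.05, is named after its values were seen and averaged 6.77 ± 0.93 and 4.57 ± 0.89 FPKM (limma adjusted p = 0.197). Trithorax proteins and the demethylases that remove the Polycomb mark keep HOX genes active. Of these, 0 of the 10 tested passed, against the same 3.05% of all tested genes (0 at an unadjusted p under 0.05, 0 in edgeR). Their median was 0.14.

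Of the inducers of HOX expression, the retinoic acid, CDX and GDF11 genes, 1 of 6 tested passed, lower in Wannanhua, against 3.05% of all tested genes. This was RXRG, the gamma retinoid X receptor, at 15.1, 34.6 and 19.0 FPKM in Wannanhua 1, 2 and 3, against Yorkshire values of 72.7, 60.0 and 77.6. The groups did not overlap, and RXRG differed by -1.65 ± 0.30 on the log2 scale (SE; limma adjusted p = 0.0412; edgeR adjusted p = 0.0198). Its adjusted p ran from 0.0193 to 0.146 over the alternatives, and the call was lost with every library but Wannanhua 2 left out, without a filter on low values and with the replicate number as a block. RARA and RARG, the retinoic acid receptors, averaged 5.35 ± 0.56 and 4.23 ± 0.96 FPKM over the Wannanhua libraries, with Yorkshire means of 5.04 ± 1.01 and 5.32 ± 1.06 (SD, n = 3; limma adjusted p = 0.833 and 0.480).

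Markers of other cells were summed per library beside these values. Those of fibroblasts and mesenchymal progenitors, 6 of 10 measured, ran from 293 to 373 FPKM in Wannanhua and from 318 to 780 in Yorkshire, overlapping between breeds. Of the 6, all tested, 0 passed limma's threshold, against 3.05% of all tested genes. In edgeR 0 passed, against 2.87% of all its genes. An unadjusted p under 0.05 was found for 2, named after their values were seen. COL1A2, a chain of type I collagen, stood at 29.5, 20.3 and 20.3 FPKM in Wannanhua 1, 2 and 3, below the 32.3, 119 and 67.4 of the Yorkshire libraries (log2 fold change -1.43 ± 0.44 SE, limma adjusted p = 0.119). COL3A1, the type III collagen chain, had a log2 fold change of -1.05 ± 0.44 (SE; limma adjusted p = 0.214), and its libraries overlapped. Those of satellite cells (6 of 8), tendon (5 of 6), fat (3 of 7), endothelium (4 of 7), smooth muscle (6 of 7) and macrophages (4 of 6) overlapped too. The summed skeletal muscle markers, 4 of 9, were higher in Wannanhua, at 9066 to 13781 against 4392 to 4860 FPKM. Those of nerve and Schwann cells, 3 of 7, were higher too, at 7.79 to 11.7 against 0.853 to 5.66. ACTA1, left out of the muscle sum for its zeros, went the other way where it was above 0. It stood at 35040 and 34738 FPKM in Wannanhua 2 and 3 and at 41706 and 38590 in Yorkshire 1 and 3. Of the 4 muscle markers 2 passed limma's threshold, MYBPC1 and ACTN2, both higher in Wannanhua (limma adjusted p = 0.0295 and 0.0312). EdgeR called 2 of that list. The fast-twitch markers, 4 of 10, were lower, at 11058 to 34726 against 51220 to 51565 FPKM, with Wannanhua 3 the nearest to Yorkshire. Of these 4, CASQ1 passed limma's threshold, lower in Wannanhua (limma adjusted p = 0.0435), and edgeR called 0. The slow-twitch markers, 4 of 8, stood at 38305, 41055 and 10108 FPKM in Wannanhua 1, 2 and 3 and at 17014, 5577 and 9978 in Yorkshire, so that Wannanhua 3 lay within the Yorkshire range, as it did for HOXD1. No measured marker was at 0 in all libraries. The part of fibre type or of other cells in the HOX and PBX3 values was not tested, and in bulk tissue fewer cells that express a gene and less RNA per cell cannot be told apart.

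Tested genes with a symbol, the members left out, were ranked by how closely their levels followed each fitted member over the 6 libraries. The other tested HOX genes were among those ranked. The measure was Pearson's r of log2(FPKM + 1), as a description over 3 libraries of each breed and with no p. GPD2, the mitochondrial glycerol-3-phosphate dehydrogenase, was nearest to HOXD9 (r = 0.998), at 7.43, 9.65 and 41.6 FPKM in Wannanhua 1, 2 and 3 and at 38.8, 42.0 and 40.4 in Yorkshire. It shared with HOXD9 the high value of Wannanhua 3, and C1orf74 was second (r = 0.993). SNCG, gamma-synuclein, was nearest to HOXA10 (r = 0.998), at 0.326, 0.4996 and 0.354 FPKM in Wannanhua against 6.40, 7.10 and 9.09 in Yorkshire, before NMNAT1 (r = 0.996). HOXA9 was followed by SLC25A17 and RCN2 (r = 0.997 and 0.994), HOXC10 by RAP1GDS1 and CAPZB (r = 0.996 and 0.995), and PBX3 by UBE2D4 and BCAT2 (r = 0.993 for both). RCN2 stood between 34.8 and 36.3 FPKM in Wannanhua and between 49.6 and 50.4 in Yorkshire, so that a close r did not mean a difference as large as that of HOXA9. The r over all libraries includes the breed difference on which the members were chosen. With each breed's mean taken off, r was 0.522 for RCN2 and 0.582 for NMNAT1, and it lay between 0.845 and 0.998 for the other 8 pairs. The pairs were picked by r over these same 6 libraries, so the r within breed is not free of that choice. For HOXA10, listed at 0 throughout Wannanhua, it rests on the Yorkshire libraries alone, and for HOXD9 largely on Wannanhua 3.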

How the data were processed

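Polyadenylated RNA of 6 muscle libraries was sequenced as paired ends with a kit that does not mark strand, per the labels' protocols. CASAVA 1.7, TopHat2 2.0.6 and build Sscrofa10.2 are named in the submitters' processing notes, without a role. Which counter and annotation were used, and how multiply mapped reads were treated, was not stated in the sources at hand. The authors deposited FPKM per gene, per the file headers, and a second value headed as a count. These deposited count values are not whole and are treated as a signal, reads divided by 1 factor per library. The most frequent value near 1 was taken as 1 read. Within 0.01 of a read or a relative 1e-05, 99.71% to 99.82% of nonzero values were then whole, and these reads are used here. Starting from the smallest value instead gave this unit for some libraries only, since 1 to 3 values per library lie below it. Symbols, which come from a table of Ensembl identifiers, matched 10384 of 17627 genes. No sequence was printed, as no sequence table was used.

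Log2(FPKM + 1) was fitted by breed with limma 3.58.1 in R 4.3.3, with trend and robust settings, over 11791 genes at 1 FPKM in 3 or more libraries. Left out were 7 genes that reached a deposited count value of 10000 in 1 library and 0 in another. Adjustment was by Benjamini-Hochberg over all these genes, and the threshold was 0.05. EdgeR 4.0.16 with TMM scaling on the recovered reads was an alternative. The scripts were tested on simulated data. Ratios of reads have exact 95% intervals, which cover counting error only, and a count of 0 was given a floor of 3 reads per library.

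The 6 genes and the lists (other HOX genes, TALE partners, Polycomb, Trithorax, inducers, cell type markers) were chosen with earlier results of these data known. Named are the 6 genes, each other HOX gene with a mean of 1 FPKM in either breed, up to 3 called genes per list, the 2 genes most like each fitted member, and PKNOX2, PBXIP1, EZH1, BMI1, RARA, RARG, MEIS2, PBX4 and HOXC11, named for their roles after their values were seen.

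Replicates of a breed differed by far more than sampling noise (each pair gave a chi-square of at least 79.8 for each degree of freedom). Library totals are given in the report. Alternatives were the pseudocount, the filter, quantile normalization, limma with neither trend nor robust settings, the 7 genes kept, the replicate number as a block, edgeR with TMM or RLE scaling and each library left out.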

Additional observations from a re-analysis of the deposited data

How the results depend on the processing

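The 360 genes called over all 11791 became 69 without a filter, and 27 to 524 with each library left out in turn (41 without Wannanhua 1, 30 without Wannanhua 2, 190, 58 and 27 without Yorkshire 1, 2 and 3). The median log2 fold change of the 4 members listed above 0 in both breeds was -2.62, and -4.17 and -3.15 with pseudocounts of 0.1 and 0.5, which weigh low values more by construction. It was -4.41 and -4.42 in edgeR with TMM and RLE scaling, and -3.10 to -2.58 with each library left out. No fitted member changed sign in these fits. The count of other HOX genes called, 0, was 1 after quantile normalization and in both edgeR fits (HOXA5 each time), and 0 to 1 with each library left out (HOXD1 without Wannanhua 3). The count of HOX regulators called, 1, was 0 to 1 with each library left out, and the 1 gene called without a filter was CRABP1 and not RXRG, at FPKM values under 0.7 in all libraries. The TALE partners stayed at 0 in all alternatives run. The causes were not tested. With the replicate number as a block, 205 genes were called and 0 HOX regulators. The labels do not say that a number pairs libraries, and libraries with the same number had correlations of their deviations from the breed mean of 0.101, -0.012 and 0.107 for numbers 1, 2 and 3, so no pairing was taken. Depth limits HOXA9, HOXA10 and HOXD10 most, with 97 to 213 reads in all of Yorkshire.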
